A study of Mus musculus with 3 samples.

Results

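The Dlk1-Dio3 domain on distal mouse chromosome 12 carries a dense run of microRNA genes and box C/D small nucleolar RNA (snoRNA) genes. Its small features were taken as the rows of the deposited gene tables whose locus on chromosome 12 (mm9) lay between 110.6 and 111.3 Mb with a span under 200 bp. This rule gave 77 members of 36823 rows present in all 3 tables, and of 5012 rows with a span under 200 bp. By gene identifier, GENCODE M21 classed 47 of the members as microRNA genes and 22 as snoRNA genes, and 8 had no match. Spans ran from 61 to 124 bp with a median of 79, so no member was near the limit of 200 bp, and the next longer row in the window spanned 3096 bp. The values come from brain, testis and liver of male C57BL/6 mice aged 11 weeks, with 1 library of polyadenylated RNA per tissue, prepared by a strand-specific protocol and read as single ends of 76 cycles. With 1 library per tissue there is no replicate error and no test was run. Differences are given by size together with the authors' lower and upper bounds, which cover estimation within a library only.

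In eutherian mammals this domain is imprinted. The paternal chromosome expresses the protein-coding genes Dlk1, Rtl1 and Dio3. The maternal one expresses the noncoding RNAs Meg3, Rian and Mirg, along whose transcription units the microRNA and snoRNA genes lie. MicroRNA hairpins are cut out of such long transcripts by Drosha and then Dicer, whereas C/D snoRNAs are trimmed from introns and bound by fibrillarin and its partners. Both final products lack a poly(A) tail, so a library of polyadenylated RNA mainly samples long host or precursor transcripts at these positions. The microRNAs of the domain are known as abundant in brain, where miR-134, for one, acts in dendrites.

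Of the 77 members, 69 were listed at 0 in brain, testis and liver alike. Above 0 stood 8 members in brain, 0 in testis and 0 in liver. Of the 8 in brain 7 were microRNA genes and 1 was a snoRNA gene. A lower bound above 0 was found for 2 of them, Mir1906-1 and Mir770, and both lie within the locus of Meg3. All 77 members were marked OK in all 3 tables, so none of these zeros carries a failure mark. Read against all rows, 10.4% of members were above 0 in brain, compared with 64.2% of the 36823 rows and 13.5% of the 5012 rows under 200 bp.

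The mature sequences of 6 of the 7 microRNA members that were above 0 in brain are shown first, because they name the products of the loci whose values follow. Of the 77 members, 46 had an entry with a microRNA sequence in the RefSeq table (GRCm38.p6). Sequences run 5′ to 3′, and capitals mark the seed, bases 2 to 8, which pairs with targets. The other one, Gm23912, is named only. All sequences shown are encoded on the plus strand of chromosome 12.
mmu-miR-1906: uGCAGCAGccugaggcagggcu
mmu-miR-770-5p: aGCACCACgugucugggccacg
mmu-miR-770-3p: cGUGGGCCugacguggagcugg
mmu-miR-540-5p: cAAGGGUCacccucugacucugu
mmu-miR-540-3p: aGGUCAGAggucgauccugg
mmu-miR-433-5p: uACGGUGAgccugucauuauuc
mmu-miR-433-3p: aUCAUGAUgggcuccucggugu
mmu-miR-341-5p: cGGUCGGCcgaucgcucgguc
mmu-miR-341-3p: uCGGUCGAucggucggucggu
mmu-miR-1197-5p: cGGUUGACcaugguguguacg
mmu-miR-1197-3p: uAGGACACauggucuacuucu

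The matched members gave 84 mature sequences with 78 different seeds, and 6 seeds were shared by sequences of different members, 10 members in all. Only identical seeds were counted, and members without a sequence entry were left out, so sharing may be undercounted. Mir1197 was the only one of these 10 members above 0 in brain. These are their sequences, grouped by seed, with the seed again in capitals.
mmu-miR-1197-5p: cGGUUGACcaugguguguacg
mmu-miR-758-5p: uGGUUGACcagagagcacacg
mmu-miR-494-5p: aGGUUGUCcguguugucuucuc
mmu-miR-410-5p: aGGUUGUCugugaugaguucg
mmu-miR-453: aGGUUGCCucauagugagcuugca
mmu-miR-496a-5p: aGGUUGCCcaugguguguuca
mmu-miR-379-5p: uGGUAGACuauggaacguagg
mmu-miR-1193-5p: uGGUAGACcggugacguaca
mmu-miR-379-3p: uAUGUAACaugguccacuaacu
mmu-miR-411-3p: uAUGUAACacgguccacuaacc
mmu-miR-370-5p: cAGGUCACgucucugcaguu
mmu-miR-1193-3p: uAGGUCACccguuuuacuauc

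The highest member in any library was Mir1906-1 (ENSMUSG00000084535, mm9 chr12:110782751-110782830, 80 bp). It was at 15525 FPKM in brain (bounds 10624 and 20426), and was listed at 0 in testis and at 0 in liver. FPKM, fragments mapped to a row scaled by its length and by library size, is the unit of every level here, and in features this short it is a poor guide to the amount of RNA. The bounds imply 40.1 fragments for this value. In GENCODE M21 the hairpin lies wholly inside an exon of Meg3 on the same strand, so its fragments and those of Meg3 RNA cannot be told apart.

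A second locus, Mir1906-2 on chromosome X (mm9 chrX:86004813-86004892, 80 bp), has the same mature sequence over all 22 bases. It was at 18953 FPKM in brain (13538 and 24368), with 49.0 implied fragments, and was listed at 0 in testis and liver. How reads were shared between the copies is not given in the sources used here, so the value of Mir1906-1 is uncertain.

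Mir770 (ENSMUSG00000076451, mm9 chr12:110801902-110801995, 94 bp) was at 815 FPKM in brain (475 and 1154), with 23.1 implied fragments, and was listed at 0 in testis and in liver. It too lies wholly inside an annotated Meg3 exon on the same strand. Its span equals the RefSeq hairpin of 94 bases (GRCm38.p6 chr12:109563692-109563785, plus strand), in which capitals mark both mature arms.
Mir770 hairpin: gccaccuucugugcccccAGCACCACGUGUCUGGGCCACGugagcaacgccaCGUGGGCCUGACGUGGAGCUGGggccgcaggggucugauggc

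**Figure D1:**
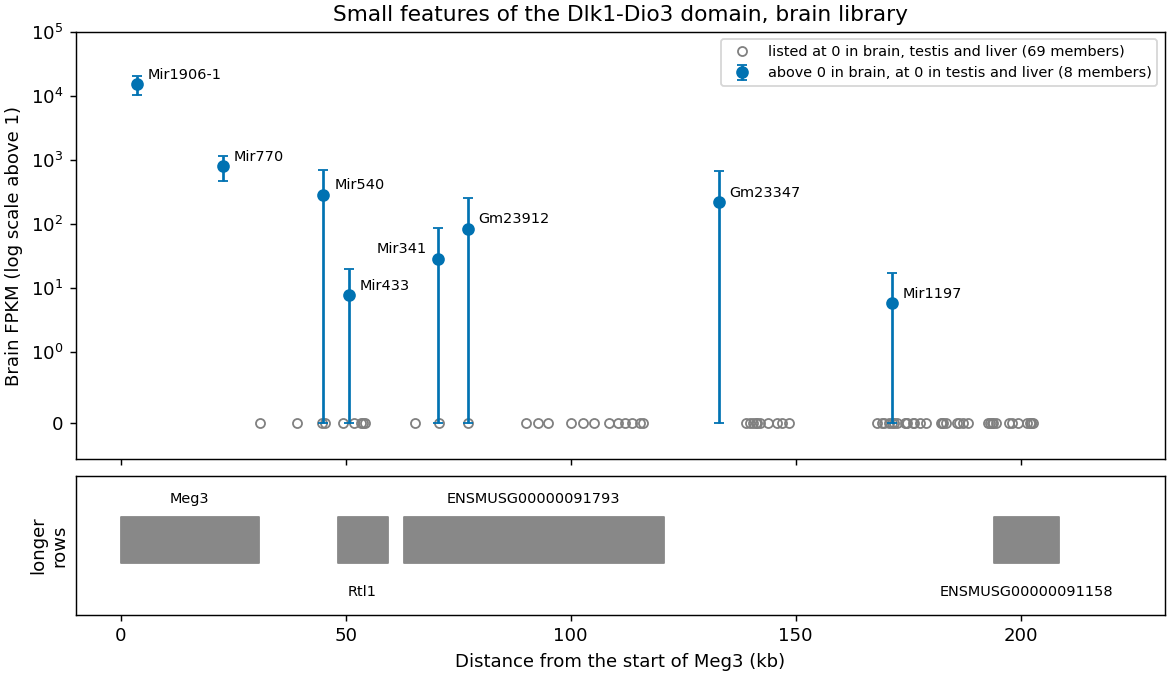
FPKM of the 77 members in the brain library against distance from the start of Meg3, with the deposited bounds as bars; the strip below marks the longer rows. The 8 members above 0 are named, the bars of 6 of them reach down to 0, and open circles mark the 69 members listed at 0 in all 3 libraries.

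The other 6 members above 0 in brain, named after their values were seen, each had a lower bound of 0. Together they held 7.62 of the 70.8 implied fragments of the whole set, and Mir1906-1 and Mir770 held 89.2%. Mir540, in the stretch between Meg3 and Rtl1, was at 288 FPKM (0 and 695) with 2 fragments. Mir433, which lies opposite to Rtl1, was at 7.83 FPKM (0 and 20.1) with 1.62 fragments, a number that is not whole. The snoRNA gene Gm23347 was at 223 FPKM, Gm23912, classed as a microRNA gene, at 85.3 FPKM, Mir341 at 29.0 FPKM and Mir1197 at 5.85 FPKM. Each of these 4 rested on 1 implied fragment, although their FPKM values spanned 38.1-fold.

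That spread followed the annotated span. Over all rows under 200 bp in brain, 1 implied fragment was worth 8392 FPKM at 75 bp, a value from 1 row only. It was worth 545 FPKM at 79 bp, 387 FPKM at 80 bp and 35.3 FPKM at 94 bp. At 120 bp it was worth 5.85 FPKM, from 2 rows, and at 124 bp 4.84 FPKM. All 104 brain rows of 79 bp used for this gave between 545.03 and 545.06 FPKM per fragment. Among the 4 members at 1 fragment, FPKM ran in the reverse order of span, from 82 bp for Gm23347 to 120 bp for Mir1197. Implied fragments are therefore given beside each level.

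**Figure D2:**
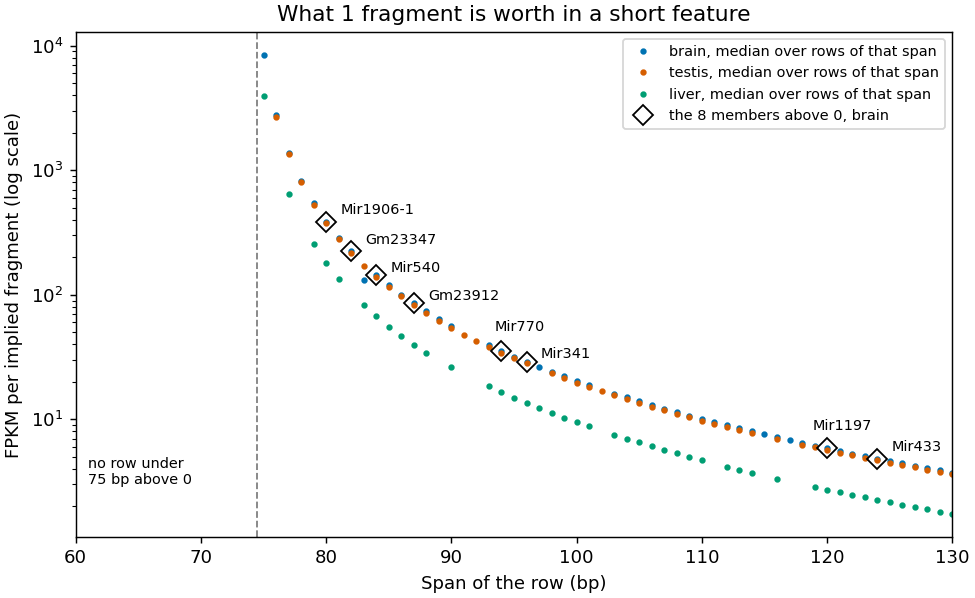
FPKM per implied fragment (log scale) against the span of the row in bp, as the median over all rows of that span in the brain, testis and liver libraries; diamonds are the 8 members above 0 in brain. The worth of 1 fragment in brain drops steeply from 8392 FPKM at 75 bp, where 1 row gives it, to 4.84 FPKM at 124 bp. The members are among the rows behind the curve, so their place on it is no separate result.

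Below 75 bp no row of any kind was above 0, with 0 of 619 rows in each of the 3 libraries. The shortest row above 0 spanned 75 bp in brain, 76 bp in testis and 75 bp in liver, close to the read length of 76 bases. Among the members 23 fell under 75 bp, namely 15 of the 22 snoRNA genes, 5 of the 47 microRNA genes and 3 of the 8 unmatched rows. Mir379 and Mir134 are among them. For these 23 a value of 0 says nothing about expression in any tissue. With members of 75 bp counted in, 31 span less than the 76 bases of a read. At 75 bp, 1 row in brain and 1 in liver gave the worth of a fragment, and none in testis was above 0. Zeros of members at 75 bp thus say little too.

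The span itself depended on the annotation. Of 43 members with a RefSeq hairpin, 34 had a span equal to its length and 9 were longer, by 2 to 27 bases. Mir540 was one of the 9, with a span of 84 bp in the tables and a RefSeq hairpin of 67 bases. In all, 5 members of 75 bp or more had a RefSeq hairpin under 75 bases, and of these 1 was above 0 in brain.

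Among the 54 members of 75 bp or more, 8 were above 0 in brain. By span class, brain had 0 of 17 members above 0 at 75 to 79 bp, 6 of 33 at 80 to 99 bp and 2 of 4 at 100 bp or more. Rows outside the Dlk1-Dio3 and Snrpn-Ube3a domains gave 11 of 132, 90 of 804 and 435 of 3240. At 80 to 99 bp these are 18.2% of members and 11.2% of the other rows. With a lower bound above 0 they were 2 of 33 members, 6.06%, and 6.84% of the others. None of these differences was tested. Testis had 0 of 33 members above 0 in this class, against 8.83% of the other rows, and liver 0 of 33, against 7.59%.

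**Figure D3:**
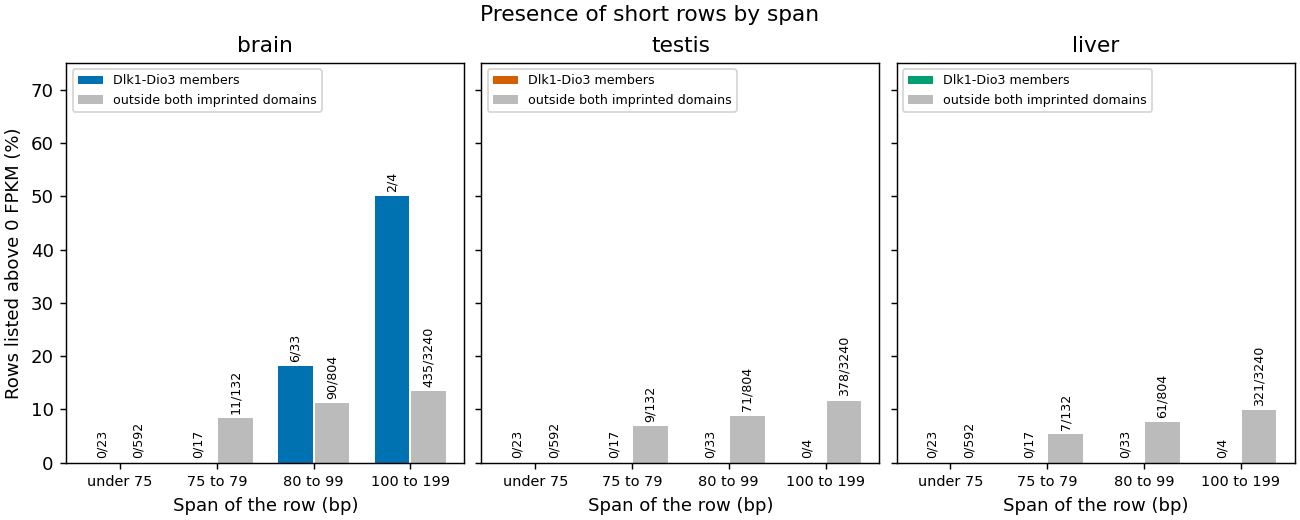
Percent of rows listed above 0 FPKM by span class in bp, for the Dlk1-Dio3 members (coloured) and for rows outside both imprinted domains (grey), in brain, testis and liver, with the number above 0 and the total over each bar. Members appear in the brain panel only, 6 of 33 at 80 to 99 bp and 2 of 4 at 100 bp or more, and no row under 75 bp is above 0 in any panel.

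Another imprinted cluster of small RNA genes gave more rows above 0 in brain. In a window over the Snrpn-Ube3a domain (chromosome 7, mm9, 66.4 to 67.3 Mb), 133 of 167 rows under 200 bp were above 0 in brain, 108 of them with a lower bound above 0. There 22 were above 0 in testis and 0 in liver. At 75 to 79 bp, 0 of 17 Dlk1-Dio3 members were above 0 in brain, against 118 of 266 rows of that span outside the domain. Most of those 118 lie in the Snrpn-Ube3a window, since outside both domains 11 of 132 rows of that span, 8.33%, were above 0.

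Brain was compared with testis and liver by a rule of at least 4-fold on log2(FPKM + 1) with bounds that do not overlap. Mir1906-1 and Mir770 were higher in brain than in testis, 2 of 77 members, and 0 were lower. Over all rows 7.19% were called higher in brain than in testis and 11.0% lower. Against liver, these 2 members were again higher in brain and 0 were lower, where 9.14% of all rows were called higher and 2.79% lower. Between testis and liver 0 members were called higher and 0 lower, with backgrounds of 15.2% and 3.82%. Among rows under 200 bp, 6.36% were higher in brain than in testis and 0.459% lower. Against liver 7.02% of these short rows were higher in brain and 0.200% lower, and 2.69% were higher in testis than in liver and 0.399% lower. The share of members called, 2.60%, was below the background of rows higher in brain in both comparisons, over all rows and over short rows. It was above the share of the 674 microRNA rows outside the domain, 0.890% in each comparison. The 1130 snoRNA rows outside it stood at 7.17% against testis and 7.61% against liver. The 77 members mix 47 microRNA genes, 22 snoRNA genes and 8 unmatched rows, so neither of these sets is a like background. Both called members are microRNA genes, and no snoRNA member was called. Short rows include those of the Snrpn-Ube3a window, of which 64.7% were called higher in brain in each comparison. Of the 54 members of 75 bp or more, 3.70% were called. None of these differences was tested. The median difference over members was 0 on the log2 scale in all 3 comparisons, and over all rows it was 0 for brain minus testis, 0.01 for brain minus liver and 0.02 for testis minus liver.

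The zeros in testis and liver were set against depth. At a span of 80 bp 1 fragment was worth 387 FPKM in brain, 375 FPKM in testis and 181 FPKM in liver, so testis was 1.03 times and liver 2.14 times as deep as brain. A count of 0 allows up to 3 fragments, which for Mir1906-1 would be 1126 FPKM in testis and 542 FPKM in liver, both below its lower bound of 10624 FPKM in brain. For Mir770 the limits were 103 FPKM in testis and 49.5 FPKM in liver, below its brain bound of 475 FPKM. These limits cover counting error only. At the brain level Mir1906-1 would have had 41.3 fragments in testis and 85.9 in liver, and Mir770 23.8 and 49.4. For the 6 members with up to 2 fragments in brain, a difference was not detectable at this depth. Of the 69 members at 0 in all 3 libraries, 46 span 75 bp or more. For those with another row of the same span to read it from, 1 fragment would have been worth 5.57 to 8392 FPKM in brain (43 members, median 288), 5.41 to 1340 FPKM in testis (35 members, median 216) and 2.60 to 3920 FPKM in liver (38 members, median 181). The upper ends in brain and liver, both at 75 bp, rest on 1 row each.

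Meg3 itself (ENSMUSG00000021268, mm9 chr12:110779211-110809936), a maternally expressed noncoding RNA, was at 481 FPKM in brain (471 and 491), 8.68 FPKM in testis (7.58 and 9.77) and 0.293 FPKM in liver (0.201 and 0.386). Taken as those of a Poisson count, the bounds imply 10203 fragments in brain, 250 in testis and 40.6 in liver. These counts do not follow FPKM and depth across the libraries, so for Meg3 they are uncertain and were not used further. By FPKM, brain was 55.4 times testis and 1639 times liver. The fragments of the 2 Meg3 members were scaled by these ratios and by depth, 1.03 for testis and 2.14 for liver relative to brain. The 40.1 fragments of Mir1906-1 would then come to 0.746 in testis and 0.0524 in liver, and the 23.1 of Mir770 to 0.428 and 0.0301. All 4 of these numbers are under 1 fragment.

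The row ENSMUSG00000091793 (mm9 chr12:110842155-110899919) has no symbol in the tables used here. All 16 of its matched members lie in Rian in GENCODE M21, 7 of them in exons and 9 in introns. It was at 118 FPKM in brain (115 and 120), 0.664 FPKM in testis and 0.105 FPKM in liver, and was called higher in brain than in either. Of the members in its locus, 15 of 17 were listed at 0 in brain, and Mir341 and Gm23912 had 1 fragment each. Both of these are intronic in Rian in GENCODE M21. Of the 17 members, 10 span under 75 bp. The 7 members in exons span 72 to 75 bp, where a 0 says little or nothing. All matched members longer than 75 bp lie in introns, so no exonic member could be read against the level of the row.

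The row ENSMUSG00000091158 (mm9 chr12:110973191-110987665) holds 8 matched members, all within Mirg in GENCODE M21. It stood at 8.54 FPKM in brain (7.83 and 9.25), 4.37 FPKM in testis (3.91 and 4.83) and 0.00926 FPKM in liver. Brain and testis thus differed by less than 4-fold here, whereas Meg3 differed by 55.4-fold. Brain and testis were each called higher than liver. All 9 members within it, among them Mir154, Mir410 and, with a span of 68 bp, Mir377, were at 0 in every library. Mir377 aside, the worth of a fragment in these members ran from 56.0 FPKM (Mir541) to 545 FPKM (Mir369) in brain. For Mir541, the lowest, it was 54.4 FPKM in testis and 26.2 FPKM in liver. In each library a member at the level of the row would thus come to less than a fragment. These zeros therefore cannot be read against the level of the row.

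The stretch between these rows holds 38 members, of which 22 are microRNA genes, 10 snoRNA genes and 6 unmatched, and it includes Mir379 and Mir134. Above 0 in brain were 2 of the 38, Gm23347 and Mir1197, and 12 span under 75 bp. In the stretch between Meg3 and Rtl1, 1 of 5 members, Mir540, was above 0 in brain. Neither stretch had a member above 0 in testis or liver.

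Of the paternally expressed genes, Dlk1, which encodes a Notch-like membrane protein, was at 6.67 FPKM in brain, 0.676 FPKM in testis and 0.0157 FPKM in liver, where it was marked as low data. Rtl1, a gene derived from a retrotransposon and targeted by the microRNAs opposite to it, was at 0.0713 FPKM in brain and was listed at 0 in testis and liver. Of the 6 members in its locus, 5 lie opposite to it in an exon, and Mir433 was the one above 0. Whether counting used strand is not given, so reads of Rtl1 and of these members cannot be told apart. Dio3, which inactivates thyroid hormone, was at 0.206 FPKM in brain, 0.0154 FPKM in testis and 0.00739 FPKM in liver. Wdr25, farther out, was at 2.20 FPKM in brain, 2.14 FPKM in testis and 0.782 FPKM in liver, and was called in no comparison. Begain, a neighbour towards the centromere, was at 18.2 FPKM in brain, 0.491 FPKM in testis and 0 in liver. Of the 10 domain genes looked for, 6 matched by symbol, and of these 3, Dlk1, Meg3 and Begain, were higher in brain than in testis and 3 higher in brain than in liver, with 0 lower in either. In whole tissue, fewer cells of a type and less RNA per cell cannot be told apart.

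**Figure D4:**
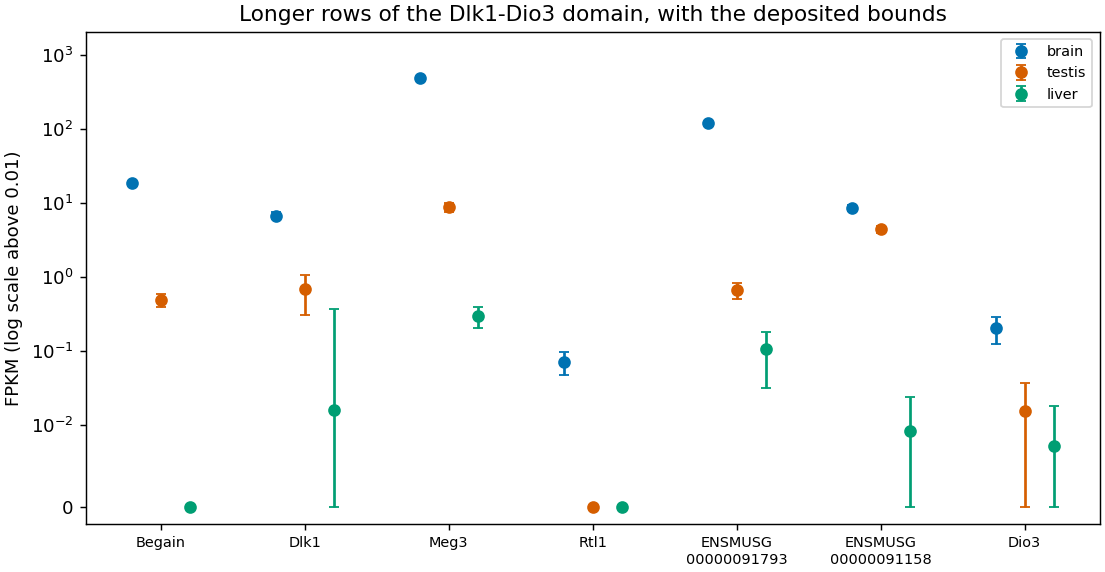
FPKM (log scale above 0.01) of 7 longer rows of the domain in brain, testis and liver, without Wdr25, with the deposited bounds as bars. Brain is highest for each row shown; among these rows brain and testis are closest by ratio at ENSMUSG00000091158, with 8.54 and 4.37 FPKM, and far apart at Meg3, with 481 and 8.68 FPKM.

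The snoRNA members are shown by 4 sequences from GENCODE M21 (GRCm38, plus strand), chosen to set the 1 snoRNA member above 0 in brain beside 3 that span under 75 bp. Capitals mark TGATGA, the core of box C, and CTGA within the last 20 bases, box D.
Gm23347: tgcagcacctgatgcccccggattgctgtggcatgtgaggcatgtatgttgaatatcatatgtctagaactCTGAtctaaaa
DQ267101: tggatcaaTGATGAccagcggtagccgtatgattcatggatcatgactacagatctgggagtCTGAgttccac
DQ267102: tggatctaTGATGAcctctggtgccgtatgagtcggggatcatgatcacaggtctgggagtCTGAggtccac
Gm25357: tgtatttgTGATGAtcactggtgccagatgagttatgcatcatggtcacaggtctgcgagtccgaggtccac

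Gm23347, with 82 bases the longest of these, was the 1 snoRNA member above 0. In GENCODE M21 it lies wholly inside an exon of the longer gene Gm37899 on the same strand. Its 1 implied fragment in brain thus cannot be told apart from RNA of that gene. DQ267101, of 73 bases, and DQ267102 and Gm25357, of 72 bases each, were listed at 0 in every library. The 6 further snoRNA members of at least 75 bp, all of 75 bp, were also at 0 in every library, at a span where a 0 says little. Of the 22 snoRNA members, 18 held TGATGA on the transcribed strand and 0 on the other strand, and 17 held CTGA in the last 20 bases. Among 1390 other M21 transcripts of 65 to 90 bases 18.8% held TGATGA, 14 transcripts held it on the other strand, and 28.3% held CTGA in the last 20 bases. These 1390 take in 316 other snoRNA transcripts, which gave 234 of the 261 transcripts with TGATGA. Among the 316, 74.1% held TGATGA and 87.3% held CTGA in the last 20 bases, against 81.8% and 77.3% of the snoRNA members. A match describes letters only.

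Genes for the handling of these RNAs were read from lists. Of 8 microRNA processing genes, 0 were higher and 1 lower in brain than in testis. The lower one was Tarbp2, a partner of Dicer, at 5.68 FPKM in brain and 91.5 FPKM in testis. Drosha, which makes the first cut, was at 27.8 FPKM in brain, 11.1 FPKM in testis and 1.81 FPKM in liver, and was the 1 gene of the list higher in brain than in liver. Dicer1 was at 4.11 FPKM in brain, 2.85 FPKM in testis and 4.45 FPKM in liver, and was called in no comparison. Testis was higher than liver for 3 of the 8.

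Of the 4 C/D snoRNA protein genes, 0 differed by the rule between brain and testis, and 2, Snu13 and Nop56, were higher in brain when set against liver. Snu13 was at 80.4 FPKM in brain and 18.0 FPKM in liver, and Nop56 at 59.2 FPKM in brain and 12.3 FPKM in liver. Fbl, the fibrillarin methyltransferase, was at 13.4 FPKM in brain, 17.0 FPKM in testis and 10.8 FPKM in liver. Among the regulators of imprinting, Trim28, a corepressor recruited by zinc finger proteins, was lower in brain than in testis, at 13.0 FPKM in brain and 56.6 FPKM in testis. Zfp57, which protects methylation at imprinting control regions, was at 2.57 FPKM in brain, 11.4 FPKM in testis and 0.168 FPKM in liver, and was called higher in testis than in liver.

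The defining markers of each labelled tissue were highest in its library. The 5 brain markers summed to 2274 FPKM in brain, 3.59 FPKM in testis and 0.501 FPKM in liver. Testis markers summed to 29.4 FPKM in brain, 35028 FPKM in testis and 0.234 FPKM in liver. Every member stood at 0 in testis, where those markers were highest. Liver markers summed to 647 FPKM in brain, of which Trf, also made by oligodendrocytes, gave 641 FPKM, and to 34.5 FPKM in testis and 50681 FPKM in liver. Pituitary markers, another tissue known for expression of this domain, summed to 1.10 FPKM in brain, with Prl, Cga and Tshb at 0, to 6.90 FPKM in testis, of which Pomc gave 6.18 FPKM, and to 0.0230 FPKM in liver, with all but Pomc at 0. Pomc was called lower in brain than in testis, at 0.576 FPKM in brain. Blood markers, of which 3 of 4 matched, summed to 276 FPKM in brain, 13.5 FPKM in testis and 137 FPKM in liver, and their part in the result was not tested. These sums include Alas2, which was marked as failed in testis, at 6.91 FPKM, and in liver, at 41.2 FPKM.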

How the data were processed

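The authors' deposited tables give FPKM per gene row with a lower and an upper bound and a status, per the file headers. Build mm9 is listed in the submitters' processing notes, together with Cufflinks 2.0.0, TopHat 1.4.0 and Bowtie 0.12.5. Which annotation was used, and whether counting used strand, is not given in the sources used here. No count table was used.

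Rows were joined by identifier and locus, 36823 of 36824 being in all 3 tables. Symbols and classes came from GENCODE M21 by identifier, and 69 members had a symbol. Table coordinates are mm9 with 1 added to the start. Implied fragments were obtained by doubling FPKM, dividing by the distance to the upper bound and squaring, which takes the bounds as 2 SD of a Poisson count. The worth of 1 fragment is the median of FPKM over implied fragments among OK rows of the same span with 0.5 to 60 fragments. Calls needed 4-fold on log2(FPKM + 1), which understates differences of low rows, and bounds apart. The calling code was checked on simulated data, with changes planted only in rows of far more fragments than the members had. That check does not show how well changes are found in rows as low as the members. Python 3.11.15 and pandas 2.3.3 were used.

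Members and lists were chosen with earlier results of these data known. Named members were the 3 highest per segment in brain with a lower bound above 0, members with a lower bound above 0 in testis or liver, members not marked OK, and the highest of each library. The 6 further members above 0 in brain, 3 members at 0 in the unnamed row and 4 snoRNA sequences were named after their values were seen. Rian, Mirg, Meg8 and Dio3os had no row by symbol, so their segments were set by the unnamed long rows. Alternatives covered pseudocounts, scaling, fold, bounds, span, status, a low-value filter and, added after the data were seen, leaving out Mir1906-1. A result of the list of imprinting regulators is not reported here.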

Additional observations from a re-analysis of the deposited data

How the results depend on the processing

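With a lower bound above 0 asked for, members present in brain numbered 2 and not 8. Members higher in brain numbered 8 against testis and 8 against liver by size of difference alone, without the bounds. With Mir1906-1 left out, an alternative chosen after the data were seen, they numbered 1 and 1. Over members at 1 FPKM or more in any library the median difference was 7.12 on the log2 scale for brain minus testis and for brain minus liver, since that filter keeps only the 8 members above 0 in brain. Of 60 alternative counts of members called higher or lower, 56 had the same value as reported, among them all with pseudocounts of 0.1 or 100, scaling by median ratio or to the FPKM sum, 2-fold, OK rows only and a span under 100 bp. Most of this agreement was fixed in advance and is no measure of robustness. Every member was at 0 in testis and liver, so counts lower in brain, or between testis and liver, could only be 0. All members were marked OK, so that filter removed none. Mir1906-1 and Mir770 stayed higher in brain under each pseudocount and scaling tried. Members above 0 in testis and in liver, and members called between testis and liver, numbered 0 under every alternative tried, which for the same reason could not come out otherwise. No paired analysis was possible because each tissue has 1 library and no test was run, and for the same reason no library could be left out. Depth limits the 6 members with up to 2 fragments.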
